A study of Mus musculus with 1 sample.

Results

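The 10 genes described here encode the cytotoxic granule proteins Gzma, Gzmb, Gzmc, Gzmd, Gzme, Gzmf, Gzmg, Gzmk, Prf1 and Nkg7, out of 32285 genes counted. They were chosen by name, and their UMI counts were compared among T cells with a UMI of Cd8a or Cd8b1 (Cd8 T cells), other T cells, NK cells, myeloid-like cells and tumor-like cells. A UMI count is the number of distinct transcript molecules captured for a gene in a cell. All 10 genes had UMIs in the library.

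Cytotoxic lymphocytes kill by releasing granules. Perforin, encoded by Prf1, forms pores in the membrane of the target cell, and granzymes are serine proteases that enter through them. Granzyme B cuts its substrates after aspartate and granzyme A after basic residues, whereas Nkg7 is a membrane protein of the granule that takes part in its release. In mice the genes for granzymes C to G lie beside Gzmb and are known from activated killer cells and from NK cells of the pregnant uterus.

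MC38 is a mouse colon carcinoma cell line grown here subcutaneously in female C57BL/6J mice of 4 to 6 weeks. Cells of 5 control tumors were mixed in equal proportions before capture, and the mix gave 1 droplet library (10x Genomics, 3' chemistry v3.1), in which the 3' end of each transcript is read. Since UMIs of a 3' library are not scaled by transcript length, levels were compared between cells and not between genes. The label gives the genotype WT and no shRNA, and the library was taken as the control pool (shNTC, a non-targeting shRNA) of the study, whose Atp6v0a1 knockdown pool was not analysed here. Since no tag ties a cell to a tumor, there is 1 sample and no replicate, no test was made, and all intervals are 95% intervals of counting error only.

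The library held 5307 cells with 511 to 231902 UMIs each, of which 4443 were kept after filters on mitochondrial share and doublet score. NK cells (15) had a UMI of Ncr1 or Klrb1c and none of Cd3e, Cd8 T cells numbered 56, and other T cells, with Cd3d, Cd3e or Cd3g and neither Cd8 gene, also numbered 56. Another 35 cells of the same cluster passed no gate. Median depth differed among these classes, at 14255 UMIs in NK cells, 5799 in Cd8 T cells and 3323.5 in other T cells. The 1568 myeloid-like cells had a median of 9088 UMIs and the 1734 tumor-like cells a median of 40827.5. Among T cell genes that the NK gate did not use, Trbc2 had 41 UMIs in 6 of the 15 NK cells, Trac 7, Cd3g 6 and Cd3d 2, against 705 UMIs of Trbc2 in Cd8 T and 200 in other T cells. Klrb1c had 4 UMIs in 2 of the other T cells. Of the 7 tumor genes, Shisal2b, Rhox5 and Hmga2 were at 103 to 695 UMIs per 1000000 UMIs (CPM) in the tumor-like cells, whereas Krt18 was at 0 and Krt8 and Epcam had 7 and 5 UMIs. The 8 myeloid genes summed to 211 CPM in Cd8 T, 427 CPM in other T and 219 CPM in NK cells, against 17508 CPM in myeloid-like cells, the 5 granulocyte genes were at 0 in all 3 lymphocyte classes, and the part of these transcripts in the results was not tested. A cluster of 224 of the myeloid-like cells was led by dendritic cell genes such as Flt3 and Ccr7. Clusters with 979 kept cells were not named, and their markers or depth did not meet the naming rule.

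The Gzmb, Gzmc, Gzmd, Gzme, Gzmf and Gzmg genes occupied 144.6 kb of chromosome 14 on the minus strand, from 56117626 to 56262260 in GRCm38 (GENCODE M21). Gzma (chr13:113093825-113100981) and Gzmk (chr13:113171608-113225908) lay together on chromosome 13. Prf1 was at chr10:61297833-61304680 and Nkg7 at chr7:43437073-43438249, both on the plus strand. The promoters of the chromosome 14 genes are shown because Gzmc to Gzmg were counted together in the same few cells, whereas Gzmb was counted in many. Each is the RefSeq sequence (GRCm38.p6) from 150 bases before to 50 after the gene start, written on the coding strand, and the RefSeq start of a gene can differ from its GENCODE start. Capitals mark the letters of the RUNX motif, ACCACA or its reverse complement TGTGGT, and of the CRE motif, TGACGTCA.
Gzmb promoter: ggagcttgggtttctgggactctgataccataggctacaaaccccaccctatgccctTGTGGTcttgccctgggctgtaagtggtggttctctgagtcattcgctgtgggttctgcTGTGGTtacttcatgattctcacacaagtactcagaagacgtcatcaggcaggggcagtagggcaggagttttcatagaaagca
Gzmc promoter: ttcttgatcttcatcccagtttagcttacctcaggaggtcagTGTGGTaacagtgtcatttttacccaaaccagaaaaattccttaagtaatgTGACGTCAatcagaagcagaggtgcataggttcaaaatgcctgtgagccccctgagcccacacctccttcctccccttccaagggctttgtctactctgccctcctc
Gzmf promoter: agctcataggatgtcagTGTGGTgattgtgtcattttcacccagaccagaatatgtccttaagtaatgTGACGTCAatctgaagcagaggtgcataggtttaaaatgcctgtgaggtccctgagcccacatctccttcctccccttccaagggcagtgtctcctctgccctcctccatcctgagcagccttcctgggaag
Gzmg promoter: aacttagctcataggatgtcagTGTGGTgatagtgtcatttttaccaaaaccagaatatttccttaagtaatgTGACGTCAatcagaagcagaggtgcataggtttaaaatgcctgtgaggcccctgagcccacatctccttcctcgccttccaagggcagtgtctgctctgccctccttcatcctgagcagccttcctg
Gzmd promoter: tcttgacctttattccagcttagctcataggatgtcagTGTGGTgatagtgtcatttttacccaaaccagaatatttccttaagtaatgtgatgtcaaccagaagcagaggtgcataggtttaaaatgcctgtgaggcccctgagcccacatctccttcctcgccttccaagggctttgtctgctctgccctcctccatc
Gzme promoter: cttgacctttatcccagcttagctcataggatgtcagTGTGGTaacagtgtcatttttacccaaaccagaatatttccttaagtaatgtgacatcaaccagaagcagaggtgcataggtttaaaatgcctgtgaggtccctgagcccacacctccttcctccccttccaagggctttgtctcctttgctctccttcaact
These windows were chr14:56262285-56262484 for Gzmb, chr14:56234608-56234807 for Gzmc, chr14:56211358-56211557 for Gzmf, chr14:56159530-56159729 for Gzmg, chr14:56132544-56132743 for Gzmd and chr14:56120576-56120775 for Gzme. The CRE letters were present in the promoters of Gzmc, Gzmf and Gzmg and in no other member, and 1.79% of the 32851 RefSeq mouse promoters of 300 bases held them on either strand. The RUNX letters were present in 9 of the 10 member promoters, all but that of Gzmk, against 16.8% of all promoters. The RefSeq window used for Gzmk, around chr13:113180916-113181115, lies inside the GENCODE gene, whose minus-strand start is at 113225908, so the motif statements for Gzmk describe that window alone. A T-box motif, GGTGTGA, occurred in those of Gzmk and Nkg7 (3.98% of all), and the TATA motif TATAAA in 0 of the 10 (13.6% of all). A match of letters is a description and not a bound site. The promoters of Gzmd and Gzme were 93.4% identical over 300 bases, and those of Gzmc and Gzmd 83.4%, whereas the promoter of Gzmb had between 46.8% and 51.7% identity with those of Gzmc to Gzmg.

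Some of these genes are near copies, between which reads can be split. The last 500 bases of the annotated transcripts of Gzmd and Gzme were 89.4% identical, and those of Gzmf and Gzmg 88.4%. Of 410 windows of 91 bases in the last 500 bases, 6 (1.46%) were shared exactly between Gzmd and Gzme, and 0 were shared by any other pair of members. Counts of Gzmd and Gzme are therefore somewhat less certain, and how reads from shared stretches were counted was not examined.

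Perforin was counted in most Cd8 T cells and NK cells, at levels whose intervals overlapped, and was low in other T cells. A Cd8 T cell held between 0 and 62 Prf1 UMIs with a median of 2, an NK cell between 0 and 42 with a median of 6, and another T cell at most 3. Summed over the class, Prf1 was at 883 UMIs per 1000000 UMIs of the class (CPM; 790 to 985) in Cd8 T cells and at 745 CPM (628 to 877) in NK cells, and these neighbours in the order did not differ beyond counting error. The ratio of NK to Cd8 T cells was 0.843 (0.687 to 1.03). It was 0.736 (0.579 to 0.930) without the richest cell of each class, and was 1.18 when every cell had the same weight, so the order of these classes for Prf1 depends on the weighting. Other T cells were at 36.0 CPM (14.5 to 74.1), from 7 UMIs in 4 cells, and Cd8 T cells were 24.6-fold higher (11.8 to 61.6). This ratio was 4.85 when NK cells with a UMI of Cd3d or Cd3g were counted as other T cells, and 195 when cells were gated by marker genes alone, without clusters.

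Granzyme B was the only granzyme with many positive cells in all 3 lymphocyte classes. Of Cd8 T cells, 37 of 56 (66.1%; 52.2 to 78.2) had a UMI, as had 27 of 56 other T cells (48.2%; 34.7 to 62.0) and 11 of 15 NK cells (73.3%; 44.9 to 92.2). The cells ranged from 0 to 132 Gzmb UMIs in Cd8 T cells (median 3), from 0 to 36 in other T cells (median 0) and from 0 to 146 in NK cells (median 20), so the classes overlapped cell by cell. Their summed levels were nevertheless apart in counting error, at 3624 CPM (3360 to 3904) in NK cells, 1510 CPM (1386 to 1641) in Cd8 T cells and 812 CPM (690 to 949) in other T cells. NK cells were 2.40-fold above Cd8 T cells (2.14 to 2.69), and Cd8 T cells 1.86-fold above other T cells (1.56 to 2.23). Gating by marker genes alone gave 1.42 and 14.4 for these ratios, with 139 other T cells and 25 NK cells. Thinned to 1000 UMIs a cell, which leaves out 2 Cd8 T cells, 4 other T cells and 1 NK cell, the shares of cells with Gzmb were 60.9% in NK cells, 44.5% in Cd8 T cells and 32.7% in other T cells.

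**Figure D1:**
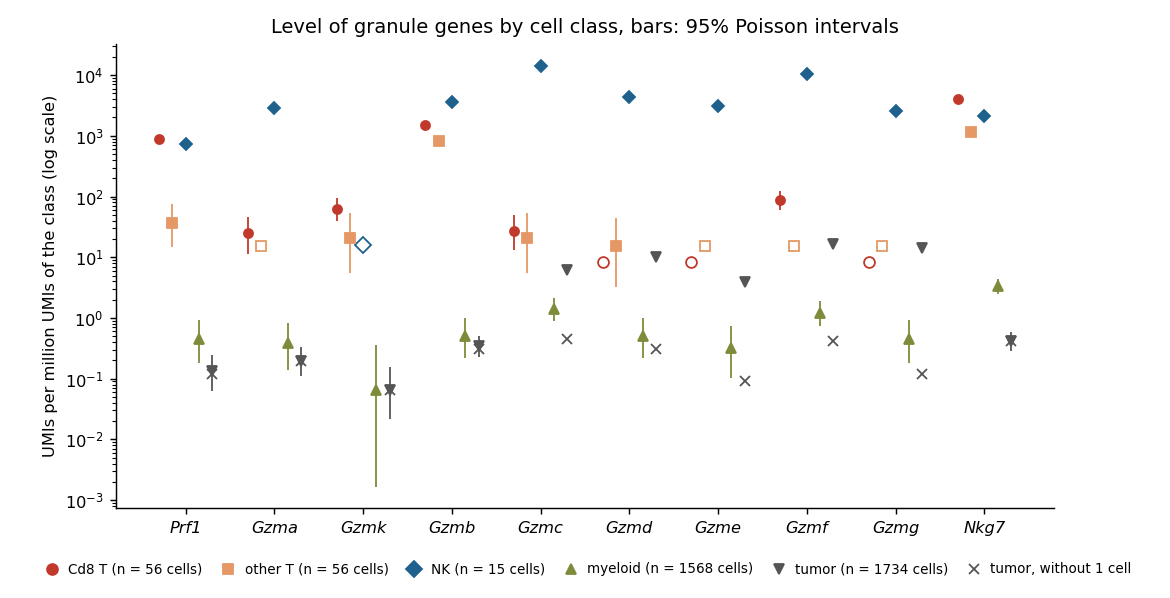
Level of each gene in the 5 cell classes, in UMIs per 1000000 UMIs of the class on a log scale, with 95% Poisson intervals; open symbols mark classes with 0 UMIs at the limit of 3 counts, and crosses give the tumor-like cells without the 1 cell that held most Gzmc to Gzmg. Prf1 and Nkg7 were within an order of magnitude in Cd8 T and NK cells, whereas Gzma and Gzmc to Gzmg were far higher in NK cells.

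Granzyme A was nearly restricted to NK cells in these counts, with 559 of the 595 UMIs of the kept cells (93.9%). Among the 15 NK cells, 7 had Gzma, with a lowest value of 0, a median of 0 and a highest value of 171 UMIs. All 9 Gzma UMIs of the Cd8 T cells came from 1 cell. None was counted in other T cells, where 0 UMIs allow a level of up to 15.4 CPM. The level was 2911 CPM (2675 to 3163) in NK cells and 24.6 CPM (11.3 to 46.7) in Cd8 T cells, a ratio of 118 (61.9 to 260). Without the richest cell of each class, Gzma was at least 256-fold higher in NK cells, since the remaining Cd8 T cells held 0 UMIs.

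Granzyme K, a relative of granzyme A, had the opposite distribution and low counts. It was present in 14 of 56 Cd8 T cells (25%; 14.4 to 38.4) with at most 4 UMIs a cell, at 62.9 CPM (39.9 to 94.4). The NK cells held 0 Gzmk UMIs, which allows up to 15.6 CPM, so Cd8 T cells were at least 4.03-fold higher. In other T cells all 4 UMIs were in 1 cell. Of the 14 Cd8 T cells with Gzmk, 12 also had Gzmb, 9 had Prf1 and all 14 had Nkg7, while the 1 Cd8 T cell with Gzma was among them.

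Granzymes C to G were at their highest in NK cells, and within them in few cells. Gzmc was present in 9 of 15 NK cells, with a median of 47 and a highest value of 830 UMIs, at 14050 CPM (13525 to 14590). It was at 27.4 CPM (13.1 to 50.3) in Cd8 T cells, from 10 UMIs in 5 cells, and NK cells were 514-fold higher (279 to 1072). Gzmd and Gzme were each present in 6 NK cells, at 4307 CPM (4018 to 4610) and 3052 CPM (2810 to 3309). Both were at 0 in Cd8 T cells, which allows up to 8.21 CPM, so the NK cells were at least 525-fold higher for Gzmd and at least 372-fold higher for Gzme. Other T cells had 3 UMIs of Gzmd and 0 of Gzme. Without the NK cell richest in each, the bounds were 372-fold for Gzmd and 179-fold for Gzme.

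Gzmf and Gzmg rested on single cells. The deepest NK cell, with 33775 UMIs, held 2010 of the 2012 Gzmf UMIs of the class and 451 of its 489 Gzmg UMIs. Without the richest cell, Gzmf in the NK class was at 12.6 CPM in place of 10478, which is below the 27.8 CPM of Cd8 T cells without theirs, and Gzmg was at 240.1 CPM in place of 2546. Gzmg had 0 UMIs in both T cell classes, so NK cells were at least 310-fold higher than Cd8 T cells, and at least 28.9-fold without the richest cell. The deepest NK cell had 756 Gzmc, 337 Gzmd and 350 Gzme UMIs as well, so that the 5 genes together were 11.6% of its UMIs, and it had 5 UMIs of Ncr1, 1 of Klrb1c and 1 of Cd3d. Its doublet score was 0.5, beside a median of 0.575 in kept cells and a lowest score of 0.825 among the cells removed for it. A gate that also bars Cd3d, Cd3g and both Cd8 genes moved it to the other T cells, and the NK to Cd8 T ratio of Gzmf then became 0.152 while that of Gzmc to Gzmg together stayed at 157. In Cd8 T cells, Gzmf had 32 UMIs in 3 cells, with 22, 9 and 1 UMIs.

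**Figure D2:**
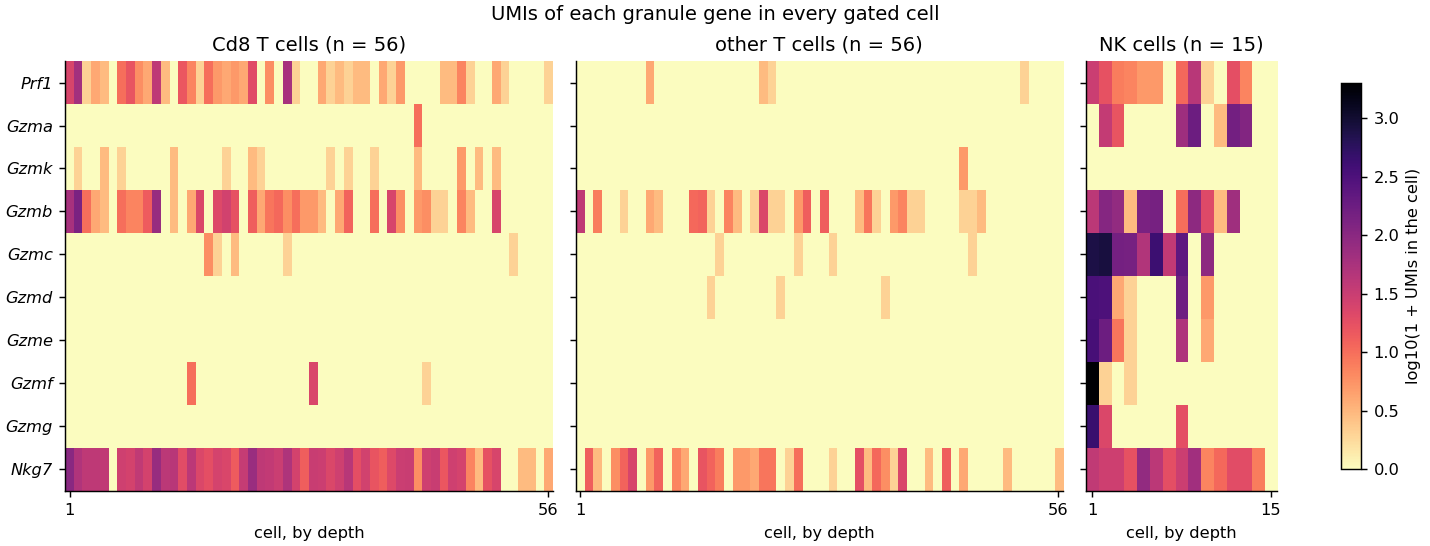
UMIs of each granule gene in every Cd8 T, other T and NK cell, ordered from the deepest to the shallowest cell within each class, on a log10(1 + UMIs) color scale. Nkg7 and Gzmb run across most Cd8 T cells, Gzma is nearly empty in both T cell classes, and UMIs of Gzmc to Gzmg among NK cells lie in the 10 deepest.

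The NK cells did not carry 1 common set of granzymes. Of the 15 cells, 9 had UMIs of Gzmc to Gzmg, 4 had Gzma without them and 2 had neither. Of the 9 cells with Gzmc to Gzmg, 3 also had Gzma, with 68, 34 and 15 UMIs. The 3 cells with the most Gzma had 171, 154 and 115 UMIs of it and 0 of Gzmc to Gzmg, although the deepest of them had 9655 UMIs in all. Thinned to 1000 UMIs, Gzma and Gzmc were expected together in 16.9% of NK cells, below the 25.5% given by the product of their shares. Gzmf with Gzma was also below its product, at 0.284% against 3.19%. Gzmd, Gzme and Gzmg with Gzma were above theirs, at 13.5%, 14.1% and 8.82% against 10.6%, 10.9% and 6.82%. Gzma and Prf1 were together in 27.7% against a product of 16.1%. These are descriptions of 14 cells, with no test.

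The cells with Gzmc to Gzmg were deeper than those with Gzma alone, with medians of 17332 and 5534 UMIs. In the 9 cells with Gzmc to Gzmg, Prf1 was at 479 CPM (378 to 597), Gzmb at 3295 CPM (3022 to 3586) and Nkg7 at 1737 CPM (1540 to 1951). In the 4 cells with Gzma alone, these were at 2577 CPM (1989 to 3285), 6304 CPM (5362 to 7364) and 4361 CPM (3585 to 5257). These sums were unevenly spread over the 4 cells. From the deepest to the shallowest, these held 91, 2, 66 and 0 Gzmb UMIs, 42, 0, 17 and 6 Prf1 UMIs and 64, 10, 18 and 18 Nkg7 UMIs, so the summed Gzmb level rests on 2 of these cells. Of genes looked at after the split was seen, Xcl1, a chemokine for dendritic cells, was at 1835 CPM against 317 CPM. Itga1, which encodes the integrin CD49a, had 31 UMIs in 7 of the 9 cells, at 190 CPM (129 to 270). It had 0 in the 4 cells, which allows up to 119 CPM. Other genes went the other way. Klrb1c was at 147 CPM (94.4 to 219) in the 9 cells and 793 CPM (484 to 1225) in the 4, with 14 of these 20 UMIs in 1 cell. Ncr1 was at 368 CPM (281 to 474) and 674 CPM (393 to 1079), with intervals that overlap. Itga2 had 0 UMIs in the 9 cells and 2 in the 4. The deepest NK cell held 16 of the 31 Itga1 UMIs, and 1 other cell held 144 of the 299 Xcl1 UMIs. A large part of the Itga1 and Xcl1 sums thus came from single cells, although Xcl1 was counted in 7 of the 9 cells and in 2 of the 4.

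**Figure D3:**
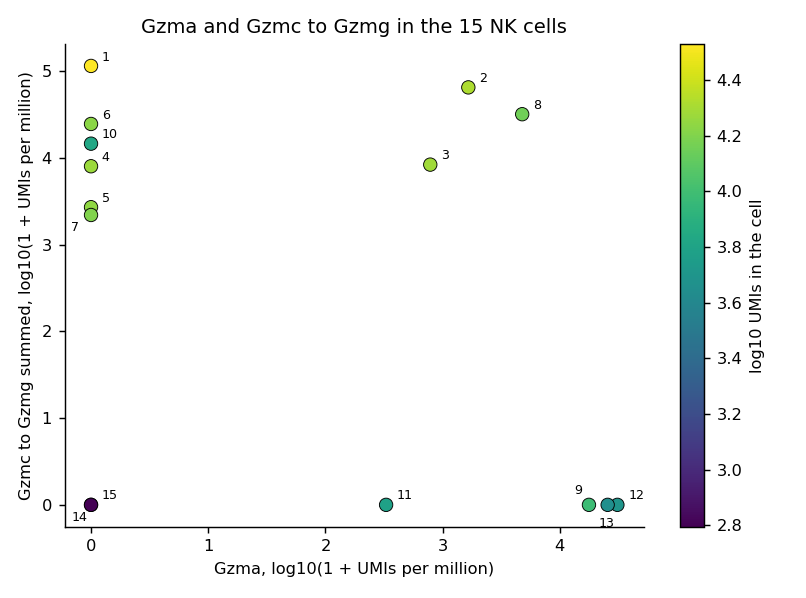
Gzma against the sum of Gzmc to Gzmg in the 15 NK cells, each axis as log10 of 1 plus the UMIs per 1000000 UMIs of the cell, numbered by depth and colored by log10 of the cell's UMIs. Cells 9, 12 and 13 with the most Gzma lie on the horizontal axis, and 6 of the 9 cells with Gzmc to Gzmg lie on the vertical axis.

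Nkg7 was the member found in most lymphocytes. It had a UMI in 52 of 56 Cd8 T cells (92.9%; 82.7 to 98.0), 31 of 56 other T cells (55.4%; 41.5 to 68.7) and 14 of 15 NK cells (93.3%; 68.1 to 99.8). A Cd8 T cell held between 0 and 102 UMIs with a median of 25, an NK cell between 0 and 84 with a median of 18, and another T cell between 0 and 23 with a median of 1.5. Its level was 4007 CPM (3804 to 4217) in Cd8 T cells, 2083 CPM (1884 to 2297) in NK cells and 1162 CPM (1015 to 1323) in other T cells. Nkg7 was thus 1.92-fold higher in Cd8 T than in NK cells (1.72 to 2.15) and 3.45-fold higher than in other T cells (3 to 3.99), and the second ratio was 27.3 with marker genes alone. Together with Gzmk, it was higher in Cd8 T than in NK cells beyond counting error.

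Against all genes, 7 of the 10 members were at least 2-fold higher in NK than in Cd8 T cells (Gzma to Gzmg), where 5.09% of 3339 genes with at least 20 UMIs in the 2 classes were. Gzma, Gzmc, Gzmd, Gzme and Gzmg reached 20 UMIs through the NK cells alone, and the ratio of Gzmf was 0.455 without the richest cell of each class, so nothing is read from this count. In the other direction stood Gzmk alone, where 12.8% of the genes were at least 2-fold higher in Cd8 T cells. The median log2 ratio of NK to Cd8 T cells was -0.09 over all genes tested. Gzmd, Gzmc and Gzme had the 3 highest ratios of all genes with at least 50 UMIs. They had 827, 2698 and 586 UMIs in NK cells against 0, 10 and 0 in Cd8 T cells. All 3 thus passed this filter through the NK cells alone, and the ratios of Gzmd and Gzme are bounds. Nothing is therefore read from their place in the order. The 3 lowest ratios were those of Cd3d, the chemokine gene Ccl4 and Cd3g. Ccl4 had 366 UMIs in Cd8 T cells, 172 of them in 1 cell, and 2 UMIs in NK cells.

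Between Cd8 T and other T cells, 5 members reached 20 UMIs, and 4 of them (Gzmf, Gzmk, Nkg7 and Prf1) were at least 2-fold higher in Cd8 T cells, where 6.11% of 3538 genes were. Gzmf, Gzmk and Prf1 reached 20 UMIs through the Cd8 T cells alone, and 5 members with fewer UMIs, such as Gzmd with 0 in Cd8 T and 3 in other T cells, are not in this count, so nothing is read from it. For Gzmf the ratio is a bound of at least 5.68-fold against 0 UMIs, and of at least 1.76-fold without the richest cell. No member was at least 2-fold higher in other T cells, where 11.8% of the genes were. The median log2 ratio was -0.10 over all genes tested. The highest ratios belonged to Cd8a, Cd8b1, which the gate uses, and the interferon-induced gene Ifitm1, and the lowest to Areg, Penk and Maf.

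Granule genes were found together in the same cells to different extents. In Cd8 T cells 28 of 56 cells (50%; 36.3 to 63.7) had both Gzmb and Prf1, 9 had Gzmb alone, 11 had Prf1 alone and 8 had neither. All 37 Cd8 T cells with Gzmb had Nkg7, and so had 38 of the 39 with Prf1. Gzmb, Prf1 and Nkg7 were together in 28 Cd8 T cells, 3 of 56 other T cells (5.36%; 1.12 to 14.9) and 10 of 15 NK cells (66.7%; 38.4 to 88.2). Of the 27 other T cells with Gzmb, 24 had no Prf1.

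At equal depth these shares were lower. Thinned to 1000 UMIs, Gzmb and Prf1 were together in 18.4% of 54 Cd8 T cells and 29.2% of 14 NK cells, and the products of their separate shares were 15% and 24.3%. Among Cd8 T cells the correlation of log levels was 0.31 for Gzmb and Prf1, 0.39 for Gzmb and Nkg7 and 0.32 for Prf1 and Nkg7 (Pearson, 56 cells of 1 library). Among the 15 NK cells it was 0.79 for Gzma and Prf1, 0.98 for Gzmd and Gzme and -0.37 for Gzma and Gzmc. For Gzma it was 0.05 with Gzmd and 0.01 with Gzme. These cells share the library and differ in depth, with which the levels also varied.

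**Figure D4:**
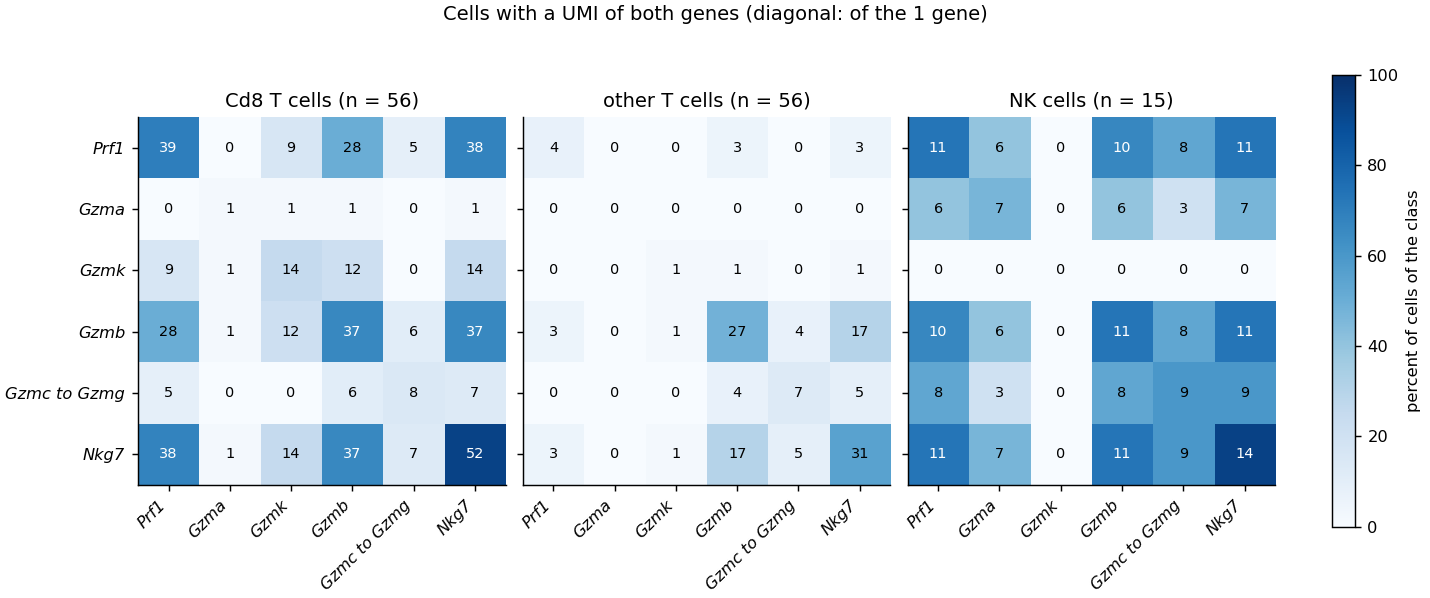
Number of cells with at least 1 UMI of both genes of a pair in Cd8 T, other T and NK cells, with the number for the single gene on the diagonal and the color giving the percent of the class. Gzmb and Prf1 were together in 28 of 56 Cd8 T cells, 3 of 56 other T cells and 10 of 15 NK cells.

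Many members at once were counted most often in NK cells, which were also the deepest of the 3 lymphocyte classes. Median depth was 14255 UMIs in NK, 5799 in Cd8 T and 3323.5 in other T cells, and these counts were not thinned. At least 3 of the 10 genes were counted in 36 of 56 Cd8 T cells (64.3%), 6 of 56 other T cells (10.7%) and 12 of 15 NK cells (80%). At least 5 were counted in 0 Cd8 T cells, which allows a share of up to 5.36%, and in 6 NK cells (40%; 16.3 to 67.7). These 6 NK cells were the 6 with both Gzmd and Gzme, and the 5 genes Gzmc to Gzmg are a large part of the 10, so the tally largely repeats that group. The most in 1 cell was 9, in 1 NK cell, with Gzmk as the missing member.

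Within Cd8 T cells, perforin and granzyme B were higher in cells with transcripts of inhibitory receptors. The 17 cells with UMIs of all of Pdcd1, Havcr2 and Lag3, genes of receptors that restrain T cells, had Gzmb at 2836 CPM and the other 39 at 610 CPM, a ratio of 4.65 (3.81 to 5.69). All 17 had a Gzmb UMI, with a median of 11, whereas 20 of the 39 had one. Prf1 was 4.34-fold higher (3.36 to 5.64), at 1631 and 376 CPM, and Nkg7 1.35-fold (1.22 to 1.5). Without the richest cell of each side the ratios were 4.38 for Gzmb, 4.28 for Prf1 and 1.39 for Nkg7. The cells with all 3 receptors were deeper, with a median of 7216 against 5655 UMIs, and at 1000 UMIs a cell Gzmb was expected in 77.2% of them and in 29.5% of the others.

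Summed levels of Gzmb and Prf1 were also higher in cells with cycling genes, and lower in those with memory genes. The 24 cells with Mki67 or Top2a, genes of dividing cells, had 2.77-fold more Gzmb (2.30 to 3.36) and 2.86-fold more Prf1 (2.23 to 3.70) than the 32 without. Without the richest cells these ratios were 2.39 and 2.89. The share of cells with Gzmb was nevertheless not higher, at 15 of the 24 and 22 of the 32, with medians of 4 and 3 UMIs. Prf1 was present in 18 and 21, with medians of 2.5 and 1.5 UMIs, and median depths were 7331.5 and 5672 UMIs. Nkg7 was at 3787 and 4212 CPM in these cells with a ratio of 0.899 (0.810 to 0.998), which without the richest cells was 0.929 (0.830 to 1.04). The 26 cells with Tcf7 or Il7r, genes of memory and less differentiated T cells, had Gzmb at 1286 CPM against 1695 CPM, a ratio of 0.759 (0.636 to 0.903), and Prf1 at 682 against 1050 CPM, a ratio of 0.650 (0.512 to 0.820). Gzmb was present in 16 of the 26 cells and in 21 of the 30 without, with medians of 3 and 5 UMIs. Prf1 was present in 16 and 23, with a median of 2 UMIs on both sides, and median depths were 6546.5 and 5694.5 UMIs. Nkg7 did not differ beyond counting error, with a ratio of 0.993 (0.894 to 1.10). All but 1 of the 32 Gzmf UMIs lay in cells with Tcf7 or Il7r, but in only 2 of these 26 cells.

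Among other T cells, the summed levels of granzyme B and Nkg7 took opposite directions by Foxp3, the transcription factor of regulatory T cells. The 18 cells with Foxp3 had Gzmb at 1059 CPM and the 38 without at 659 CPM, a ratio of 1.61 (1.16 to 2.22), with median depths of 4399.5 and 2797.5 UMIs, and 2.12 without the richest cells. A Gzmb UMI was present in 12 of the 18 and in 15 of the 38, and at 1000 UMIs a cell in 47.7% and 24.8%. The Nkg7 ratio was 0.581 (0.425 to 0.785), at 804 against 1384 CPM. An Nkg7 UMI was nevertheless present in 11 of the 18 and in 20 of the 38, with a median of 1.5 UMIs on both sides. At 1000 UMIs a cell it was expected in 38.9% and 46.4%. Prf1 had 5 UMIs in the Foxp3 cells and 2 in the others. The 2 cells with Trdc, Tcrg-C1 or Tcrg-C2 held 1 UMI of Gzmb and 16 of Nkg7.

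Myeloid-like and tumor-like cells held few UMIs of the members. A UMI of any member was present in 92 of 1568 myeloid-like cells (5.87%; 4.76 to 7.15) and in 173 of 1734 tumor-like cells (9.98%; 8.61 to 11.5). The tumor-like cells should lack these genes and had the highest median depth of the 5 classes. At 1000 UMIs a cell, the shares were 0.908% and 0.509%, against 95.9% of Cd8 T cells, 65.5% of other T cells and 98.7% of NK cells. The single-member shares in tumor-like cells were between 0.231% for Gzmk and 2.02% for Gzmc, and serve as the background of this library. Myeloid-like cells were at 0.514 CPM for Gzmb (0.222 to 1.01), and tumor-like cells at 0.343 CPM (0.224 to 0.503), which did not differ beyond counting error. For Prf1, with 7 and 10 UMIs, the ratio of myeloid-like to tumor-like cells was 3.41 (1.10 to 9.92). It was 3.25 (0.951 to 10.2) without the richest cell of each class.

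Nkg7 in myeloid-like cells turned on 1 cell. It had 27 of their 52 Nkg7 UMIs, together with 19 UMIs of Cd3g, 7 of Cd3d, 4 of Cd3e, 4 of Cd8a and 358 of Lyz2, a lysozyme of myeloid cells, and its doublet score of 0.825 equalled the lowest among removed cells. Without it, myeloid-like cells were at 1.61 CPM and at most 2 UMIs a cell, and tumor-like cells without their richest cell at 0.410 CPM, a ratio of 3.92 (2.22 to 6.86). The summed level of Gzmc to Gzmg in myeloid-like cells was 3.92 CPM (3 to 5.03), with 4 UMIs at most in a cell. Without the richest cell of each class this sum was at 3.66 CPM in myeloid-like and 1.37 CPM in tumor-like cells. That is a ratio of 2.67 (1.895 to 3.72).

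A single tumor-like cell held most of the Gzmc to Gzmg transcripts outside NK cells. It had 435 Gzmc, 739 Gzmd, 293 Gzme, 1199 Gzmf and 1058 Gzmg UMIs among its 112046 UMIs, that is 3724 of the 3828 in the class (97.3%), and 3.32% of its own UMIs. The other 1733 tumor-like cells had at most 3 such UMIs each, and their summed level was 1.37 CPM (1.12 to 1.67) in place of 50.5 CPM. The cell had 3 UMIs of Gzmb, 1 of Prf1 and 0 of Gzma, Gzmk, Nkg7, Ncr1, Klrb1c, Cd3e, Cd3d, Cd3g and Ptprc, the gene of the leukocyte antigen CD45. Its tumor genes were at 107 CPM for Shisal2b and 312 CPM for Rhox5, beside 215 and 696 CPM in the other tumor-like cells. Xist, which silences an X chromosome in female cells, was at 268 CPM in it, 2.38 CPM in the other tumor-like cells and 547 CPM in NK cells. Its doublet score was 0.8, close to the lowest score of removed cells, and the part of a second cell in this barcode was not tested.

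The make-up of the Gzmc to Gzmg transcripts differed from cell to cell. Gzmf was 51.5% (49.9 to 53.1) of them in the NK cell with the most, 0.0739% (0.00895 to 0.267) in the other NK cells and 32.2% (30.7 to 33.7) in the tumor-like cell. Gzmc was 71.7% (70.0 to 73.4) in the other NK cells, 19.4% in the NK cell with the most and 11.7% in the tumor-like cell. In the remaining tumor-like cells, which had 104 such UMIs, Gzmc was 32.7% (23.8 to 42.6) and Gzmf 29.8% (21.2 to 39.6), and in myeloid-like cells, with 61 UMIs, 36.1% (24.2 to 49.4) and 31.1% (19.9 to 44.3). These last proportions of Gzmc and Gzmf lay near those of all NK cells summed, at 40.8% and 30.4%. Gzmd was 22.1% (14.6 to 31.3) in the remaining tumor-like cells, above the 12.5% (11.7 to 13.3) of all NK cells. It was 13.1% (5.84 to 24.2) in myeloid-like cells and 19.8% in the single tumor-like cell. The source of these transcripts was not tested.

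**Figure D5:**
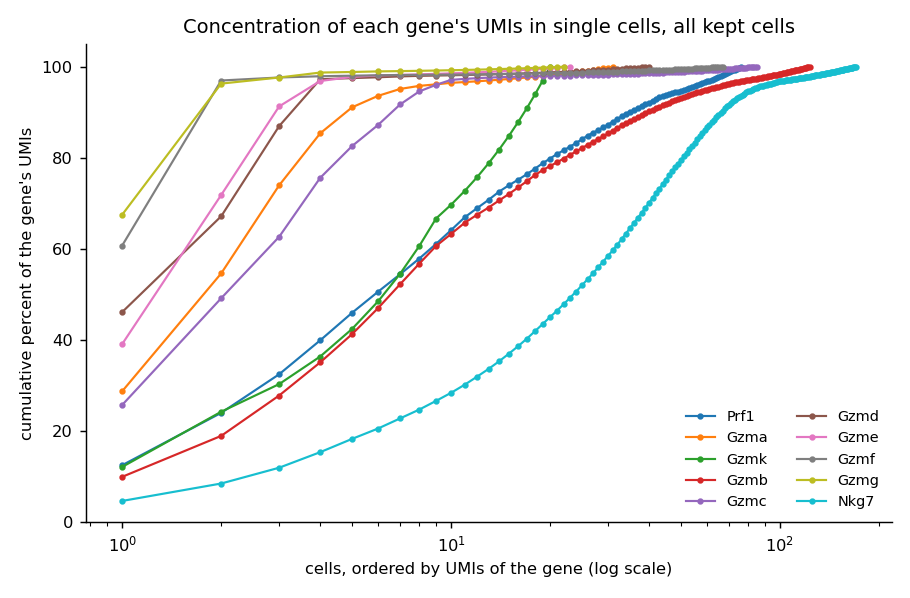
Cumulative percent of each gene's UMIs over the kept cells, ordered on a log scale from the cell with the most. For Gzmf and Gzmg the first 2 cells hold 97.0% and 96.3% of the UMIs, whereas 90% of the Nkg7 UMIs need 67 cells.

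The concentration of UMIs separated the members. Among all kept cells, 90% of the UMIs lay in 2 cells for Gzmf and for Gzmg, in 3 for Gzme, in 4 for Gzmd, in 5 for Gzma and in 7 for Gzmc. The same share needed 35 cells for Prf1, 40 for Gzmb and 67 for Nkg7. The levels of Gzmb, Prf1 and Nkg7 therefore describe many cells, and those of Gzma, Gzmc, Gzmd, Gzme, Gzmf and Gzmg a handful of barcodes.

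The other genes of the granule pathway were counted by whether the interval of their ratio left out 1. Of all genes with at least 20 UMIs, 7.37% were higher and 12.7% lower in NK than in Cd8 T cells by this criterion, and 8.03% were higher and 14.2% lower in Cd8 T than in other T cells. The lists hold 5 to 9 genes each, some with fewer UMIs, so their counts are descriptions. Of the remaining granzymes and linked proteases (Gzmm, Gzmn, Mcpt8, Ctsg and Cma1), 1 of 5 was higher in NK than Cd8 T cells beyond counting error. This was Ctsg, the cathepsin G gene, whose 72 UMIs came from the single NK cell with the most Gzmf. Gzmn and Mcpt8 were at 0 in all 3 lymphocyte classes, and Cma1 had 2 UMIs in other T and 3 in NK cells.

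Of the 6 genes for granule proteoglycan and processing, 1 was higher in NK than Cd8 T cells (Lamp1) and 0 were lower, and 2 were lower in Cd8 T than in other T cells. Srgn, the proteoglycan core that binds granzymes, was at 1592 CPM (1465 to 1727) in Cd8 T cells, 1692 CPM (1513 to 1887) in NK cells and 2770 CPM (2541 to 3014) in other T cells. Cd63, a membrane protein of lysosomes and granules, was at 123, 130.2 and 257 CPM. For granule release, 1 of 6 genes was lower in NK than Cd8 T cells, Vamp8 with a ratio of 0.358 (0.216 to 0.568), and Stxbp2 was at 41.0 CPM in Cd8 T and 72.9 CPM in NK cells, which did not differ beyond counting error.

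The serpins, inhibitors of granule proteases, went in both directions, with 2 of 6 higher and 2 lower in NK than in Cd8 T cells. Serpina3g was at 399 CPM in Cd8 T and 271 CPM in NK cells, a ratio of 0.678 (0.484 to 0.937). Serpinb6b was 2-fold higher in Cd8 T than other T cells (1.35 to 3.03). Of 9 transcription factors, 2 were higher (Runx3 and Eomes) and 1 lower (Bhlhe40) in NK cells, and 3 were higher and 2 lower in Cd8 T than other T cells. Runx3, of the RUNX family, was at 318 CPM in NK cells, 213 CPM in Cd8 T cells and 118 CPM in other T cells, and Id2 at 885, 892 and 668 CPM. Lamp1, Eomes and Bhlhe40 were singled out after their values were seen.

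Among other cytotoxic ligands and cytokines, 1 of 6 was higher and 2 were lower in NK than in Cd8 T cells. Ccl5 was at 1620 CPM in NK, 2557 CPM in Cd8 T and 2154 CPM in other T cells. Ifng, which encodes interferon gamma, was at 15.6 CPM in NK cells, 506 CPM in Cd8 T cells and 1794 CPM in other T cells, where 345 of its 349 UMIs lay in 1 cell. Without the richest cell of each class, Ifng was at 323 CPM (267 to 387) in Cd8 T and 21.4 CPM (5.84 to 54.9) in other T cells, the reverse order.

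The genes whose log levels followed the members most closely over the 127 T and NK cells were taken from 2899 genes present in at least 20% of them. For Gzma these included Tyrobp (Pearson r of 0.61), Fcer1g (0.44), Txk (0.37) and Serpinb9 (0.34). The sum of Gzmc to Gzmg shared its first genes, Tyrobp (0.61) and Fcer1g (0.57), both adaptors of NK receptors, and was followed by Lat2 (0.46), Spp1 (0.45) and Sdf2l1 (0.35). Prf1 went with Klrd1 (0.52), Cd8b1 (0.49), Klre1 (0.47), Nkg7 (0.46) and Cst7 (0.45). Nkg7 went with Klrd1 (0.62), Lag3 (0.58), Cst7 (0.57), Cd8b1 (0.57) and AW112010 (0.55). For Gzmb the values were lower, led by Pfn1 (0.39), Ppp1ca (0.38), Prf1 (0.38), Cnn2 (0.37) and Vasp (0.37). The correlation with log depth was 0.45 for Gzmb, 0.44 for Nkg7, 0.43 for Gzmc to Gzmg, 0.42 for Prf1 and 0.18 for Gzma.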

How the data were processed

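The authors pooled cells of 5 control MC38 tumors in 1 10x Genomics library and deposited UMI counts per gene and cell without normalization. Cell Ranger produced them (version 5.0.1 by the header of the file, build GRCm38 by the submitters' notes). The members, gene lists, gates and alternatives were chosen with earlier results of these data known.

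Cells with under 200 genes (0 cells) or with over 20% mitochondrial UMIs (667 cells) were left out, and the 197 cells with the highest doublet scores (simulated doublets among neighbours, 0.8% per 1000 cells) were removed. Log levels per 10000 UMIs of 2000 variable genes, with the members and other granule genes left out, 30 components and 20 neighbours gave Leiden clusters at resolution 0.5. The marker list with the most genes at 20% or more of their highest cluster level gave a cluster its name, provided these were 3 or more and 50% of the cells had 2 list genes. For shallow clusters, 1 of the 10 leading genes had to come from the list as well. This rule was set after the clusters had been seen, and names may differ from those of the study. T cells and NK cells were gated by single genes inside the 1 T and NK-like cluster.

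Levels are UMIs of a gene summed over a class per 1000000 UMIs (CPM) with exact Poisson intervals, shares have exact Clopper-Pearson intervals, and ratios exact conditional intervals, all 95%. A count of 0 was given the limit of 3 counts. PCR and capture are not covered by them. Expected shares at 1000 UMIs a cell are exact hypergeometric values. Named genes were the members, the 1 or 2 highest genes of each pathway list, the gating genes, the 5 closest correlates (1 of them is not reported here) and the 3 highest and 3 lowest ratios of a comparison. Depth was 511 to 231902 UMIs a cell. Scripts were tested on simulated data. Software was Python 3.11.15, leidenalg 0.10.2 on igraph 0.11.9, scikit-learn 1.9.0, scipy 1.17.1, numpy 2.4.6, Biopython 1.88, pandas 2.3.3 and matplotlib 3.10.9. The alternatives were other filters, cluster settings and gates, equal weight for cells, the richest cell left out, and thinning. The level in tumor-like cells without 1 cell was added after seeing the data.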

Additional observations from a re-analysis of the deposited data

Results flagged for a closer look

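Cells outside the compared classes also held UMIs of the members, above the limit of 3 counts. The 864 cells removed by the filters held 215, of which 93 were in 1 cell with 53022 UMIs and a doublet score of 0.975. That cell had 29 UMIs of Gzmb, 20 of Prf1, 41 of Nkg7 and 7 of Cd3e together with 34 of Shisal2b and 31 of Rhox5. Cells of unnamed clusters held 86 UMIs, and Gzmb accounted for 20 of them in 13 cells. A single library has no groups of samples in which 1 could stand apart from the others, so no such comparison was made.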

How the results depend on the processing

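No paired analysis was possible because there is 1 library. Of 264 ratios recomputed under 14 alternatives, 9 lay on the other side of 1, and for 5 of these the main interval or bound had excluded 1. With NK cells barred from Cd3d, Cd3g and both Cd8 genes, which moves the NK cell richest in Gzmf and 2 others to the other T cells, the NK to Cd8 T ratio of Gzmf was 0.152, and the Cd8 T to other T ratios were 0.0505 for Gzma, 0.00850 for Gzmc, 0.0103 for Gzmf and 0.00693 for Gzmc to Gzmg. Without the richest cell, the Gzmf ratio of NK to Cd8 T cells was 0.455 and the Gzmc ratio of Cd8 T to other T cells 0.890. In the stricter NK gate the NK to Cd8 T ratios of Gzmb and of Gzmc to Gzmg were 2.89 and 157, and the Cd8 T to other T ratio of Prf1 was 4.85.

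Gating by marker genes alone without clusters gave 139 other T and 25 NK cells, NK to Cd8 T ratios of 1.42 for Gzmb, 0.494 for Prf1, 0.3001 for Nkg7 and 176 for Gzmc to Gzmg, Cd8 T to other T ratios of 14.4 for Gzmb, 195 for Prf1 and 27.3 for Nkg7, and 7.49% of myeloid cells with a member. The cause was not tested. Equal weight for cells gave NK to Cd8 T ratios of 3.06 for Gzmb, 1.18 for Prf1 and 142 for Gzmc to Gzmg. Thinning to 1000 UMIs gave 3.16 for Gzmb, 1.27 for Prf1, 0.610 for Nkg7 and 147 for Gzmc to Gzmg, and shares of 18.4% (Cd8 T) and 29.2% (NK) with Gzmb and Prf1 and 0.908% (myeloid, any member). The Nkg7 ratio of NK to Cd8 T cells was 0.583 with doublets kept and 0.455 without the richest cells, and the Gzma ratio with T cells by Cd3e alone was at least 339. Of 420 levels, 350 stayed inside the main counting interval. Without 1 cell, chosen after seeing the data, the Gzmc to Gzmg level in tumor-like cells was 1.37 CPM. With 15 NK cells, 1 cell can set a level.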

Other observations

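Proteases that are encoded near the granzymes on chromosome 14 appeared in single cells of the T and NK-like cluster. They were not particular to it, since Mcpt1, Mcpt2 and Mcpt4 were among the 10 leading genes of an unnamed cluster of 347 cells. In 1 of the 35 cells that passed no gate, the mast cell protease genes Mcpt2, Cma1, Mcpt4 and Mcpt1 had 493, 170, 67 and 62 UMIs and Ctsg had 11. No other cell that passed no gate had a UMI of these genes, and among Cd8 T, other T and NK cells each of Mcpt1, Mcpt2, Mcpt4 and Mcpt8 had at most 1 UMI. In the single tumor-like cell with Gzmc to Gzmg, the next leading genes after the 5 granzymes were Gm21818 with 24 UMIs, Ifitm1 with 43 and the histone gene Hist2h3c2 with 29, and Srgn had 30 UMIs.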
